A study of Mus musculus with 4 samples.

Results

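Neuropilins and plexins are cell-surface receptors for semaphorins, and 6 of their genes (Nrp1, Nrp2, Plxna1, Plxna2, Plxnb1 and Plxnb2) were examined among the 24594 genes of a count table from mouse embryonic stem cells (ESCs). The genes were selected on measured values of the comparison reported here, in which Nrp2 had been seen to fall over 2-fold and Nrp1 was to be judged against the median of its chromosome. Differences of these 6 genes between genotypes are therefore given as a description, without a test. The table holds 4 poly(A) RNA-seq libraries of untreated cells with a 129S6/SvEvTac background, 2 of the wild-type (WT) line and 2 of a line with a snf2l knock-out. The protein SNF2L, encoded by Smarca1, is an ATPase of ISWI chromatin remodelers. As the methods describe it, cells of both genotypes were grown on gelatin with serum and leukemia inhibitory factor, and the mutant line is 1 clone made with Cas9, so that genotype and clone cannot be told apart.

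Neuropilins lack a catalytic domain of their own. They bind secreted class 3 semaphorins and members of the VEGF family, and signal by joining plexins or VEGF receptors. Plexins carry a cytoplasmic domain with GTPase-activating activity towards small GTPases of the Ras family, through which semaphorins change adhesion and the actin cytoskeleton. The A plexins are the usual partners of neuropilins, whereas the B plexins bind membrane-anchored class 4 semaphorins without a neuropilin. The family is best known from axon guidance and from the growth of blood vessels.

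The libraries held between 13771642 and 15608803 counts. For Smarca1, 620 and 626 reads were counted in WT against 37 and 31 in the knock-out, which matches the labels. Markers of ESCs were abundant in all libraries, with Pou5f1 at 561 CPM per kb in WT, where CPM is the count scaled to the TMM-corrected library size and kb refers to the gene length in the table. Of 10 ESC markers tested, 1 rose and 1 fell at an adjusted p-value under 0.05 in the gene-wise edgeR test, and DESeq2 called 1 of the 10. The marker that rose is Klf4 (log2 fold change 0.34). The marker that fell is Zfp42 (-0.60), which lies on chromosome 8, where the median log2 fold change was -0.51. In bulk RNA, fewer cells of a type and less RNA per cell cannot be told apart.

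Among the 6 genes, Nrp2 was the one that differed clearly. Nrp2 (Entrez gene 18187, chromosome 1, 62703317 to 62818692 in mm10) had 1137 and 1132 counts in WT, but 591 and 487 in the knock-out. Its levels were 83.5 and 73.9 CPM in WT and 37.7 and 31.7 CPM in the knock-out, so that the genotypes lay far apart compared with the distance between libraries of a genotype. On average, WT had 78.7 ± 6.84 CPM and the knock-out 34.7 ± 4.23 CPM (SD, n = 2 each), or 44.1% of WT. The log2 fold change was -1.18 (SE 0.112). In the 4 pairs of a knock-out and a WT library, the knock-out held between 37.9% and 51.0% of the WT level. The gene next below Nrp2 in the size of its fall was Plxnb2, at a log2 fold change of -0.09, so that the members are separated widely at the 2-fold limit of the choice.

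**Figure D1:**
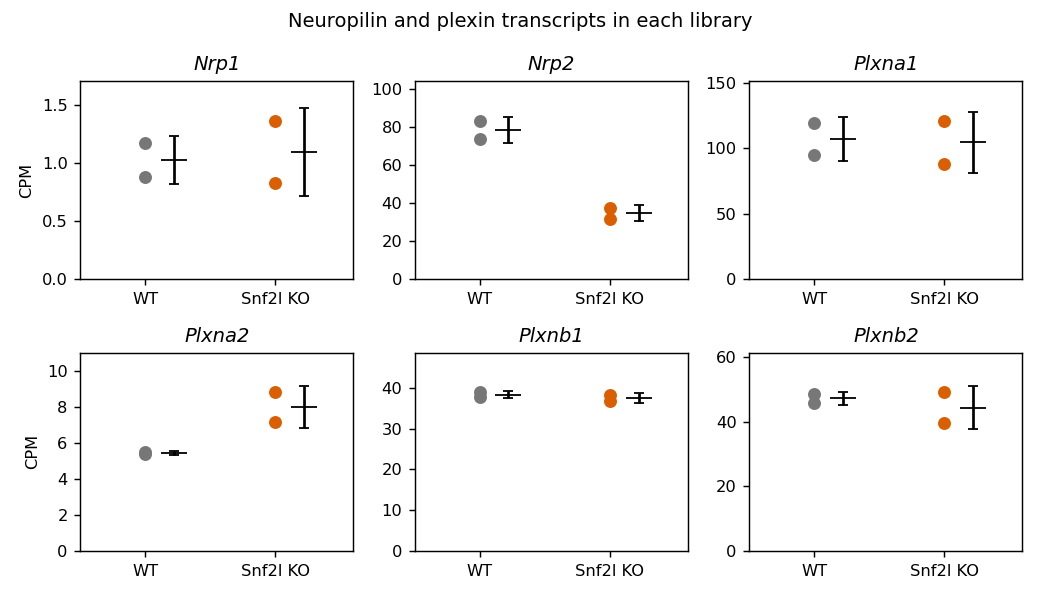
CPM (linear axis from 0) of the 6 neuropilin and plexin genes in the 2 WT (grey) and 2 Snf2l knock-out (orange) libraries, with the mean and SD of each genotype in black. Nrp2 lies between 31.7 and 37.7 CPM in the knock-out and at 73.9 CPM or above in WT, Plxna2 is higher in both knock-out libraries, and the genotypes overlap for the other genes.

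At the threshold of the study (adjusted p-value under 0.01 and over 2-fold change), 1 of the 6 genes, Nrp2, was called, whereas 0.419% of the 13840 genes tested were called lower. As Nrp2 was chosen on this contrast, nothing is read from this count. Nrp2 was the 37th of the 58 genes called lower when ordered by the size of the fall, but the fifth by its CPM in WT, a quantity that was not part of the choice. The genotypes did not overlap for 2 of the 6 genes, Nrp2 and Plxna2. This holds for 50.5% of all genes tested and is thus common in these libraries.

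The region before the Nrp2 start is shown because Nrp2 is the gene on which the difference rests. It comprises the 250 bases before the annotated start (RefSeq, GRCm38.p6, chr1:62703067-62703316, plus strand), 5′ to 3′, with each CpG in capitals.
Nrp2: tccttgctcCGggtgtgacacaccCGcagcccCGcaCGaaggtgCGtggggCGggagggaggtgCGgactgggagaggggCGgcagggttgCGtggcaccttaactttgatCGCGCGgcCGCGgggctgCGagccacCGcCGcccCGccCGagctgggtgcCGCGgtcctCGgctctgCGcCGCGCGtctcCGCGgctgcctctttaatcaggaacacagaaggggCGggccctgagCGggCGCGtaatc
These 250 bases hold 32 CpGs, and 95.4% of 32851 promoter windows of this length in the same table hold fewer. The GC box, searched as GGGCGG on both strands, occurs 5 times, each occurrence including a CpG, and is found in 32.7% of all windows. Neither TATAAA (12.4% of all windows) nor CCAAT (33.8%) was matched on either strand. Of the 6 members, 5 were matched in the table. The windows of Nrp1, Plxna2 and Plxnb1 hold 11, 18 and 30 CpGs, and both windows of Plxnb2 hold 20 and 13. Each of these windows, unlike that of Nrp2, overlaps the span of its gene as given below, so like regions are not compared. Promoter activity was not measured, and these counts describe the letters only.

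To see whether the lower level of Nrp2 was shared by the genes around it, the 5 tested genes on either side were examined, which the choice had not used. Of these 10 genes, 0 passed an adjusted p-value of 0.05 in edgeR, 0 had an unadjusted p-value under 0.05, and DESeq2 also gave 0 at either limit. Their median log2 fold change was 0.12, with a smallest adjusted p-value of 0.234. Neighbours closest to Nrp2 are Pard3b, a cell polarity gene, at 0.23 (SE 0.440), and Ino80d, which codes for a subunit of the INO80 remodeler, at 0.26 (SE 0.154), and in both the genotypes overlapped. Without knock-out replicate 2 the number passing was 2, and without WT replicate 1 it was 1. In the annotation, the lncRNA genes Gm29083 and 4930487H11Rik overlap Nrp2 but have no row of their own. Whether counting used the strand is not stated, so their reads cannot be told apart from those of Nrp2. The same limit holds for Nrp1 (Gm32643), Plxna1 (Gm40415, protein-coding), Plxna2 (Gm46202) and Plxnb1 (Gm7628), which overlap genes without a row.

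The paralog Nrp1 (Entrez gene 18186, chromosome 8, 128358591 to 128505476) was close to the limit of detection. With 12 and 18 counts in WT against 13 and 21 in the knock-out, the genotypes overlapped. This corresponds to 1.03 ± 0.207 CPM in WT and 1.10 ± 0.380 CPM in the knock-out (SD, n = 2 each). Its log2 fold change, 0.08, was smaller than its SE of 0.379.

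Nrp1 lies on chromosome 8, of which most genes were lower in the knock-out. The median log2 fold change of the 754 chromosome 8 genes tested was -0.51, against 0.013 for genes of the other chromosomes. Nrp1 was 0.59 above the chromosome 8 median, and 35 of the 754 genes (4.64%) had a larger log2 fold change. This distance is 1 value of a gene with few reads. Without knock-out replicate 2 it was 0.19, without WT replicate 1 it was 0.41, and without knock-out replicate 1 it was 0.89. Among the 99 chromosome 8 genes with a mean of at most 32 counts, to which Nrp1 belongs, the interquartile range of the log2 fold changes spanned -0.81 to -0.07 and the median SE was 0.378. Nrp1 was thus above this range by less than its own SE.

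The genes around Nrp1 were lower, as were most genes of the chromosome. Of its 8 tested neighbours (5 before, and 3 after it, where the chromosome ends), 7 fell at an adjusted p-value under 0.05 and 0 rose, with a median log2 fold change of -0.69. They are Tarbp1, Tomm20, Rbm34, Pard3, Itgb1, 2610044O15Rik8 and Gm32856. For comparison, 5.21% of all genes tested fell at this limit and 9.21% passed in either direction, and on chromosome 8 alone 453 of the 754 genes fell. Of all genes that passed, 43.4% were higher, or 67.2% after removal of the chromosome 8 median. The nearest neighbours are the polarity gene Pard3, at -0.67 (SE 0.115, edgeR adjusted p = 1.59e-03), and Itgb1, the integrin beta 1 chain, at -0.74 (SE 0.0873, edgeR adjusted p = 1.18e-04). Both were lower in both knock-out libraries.

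**Figure D2:**
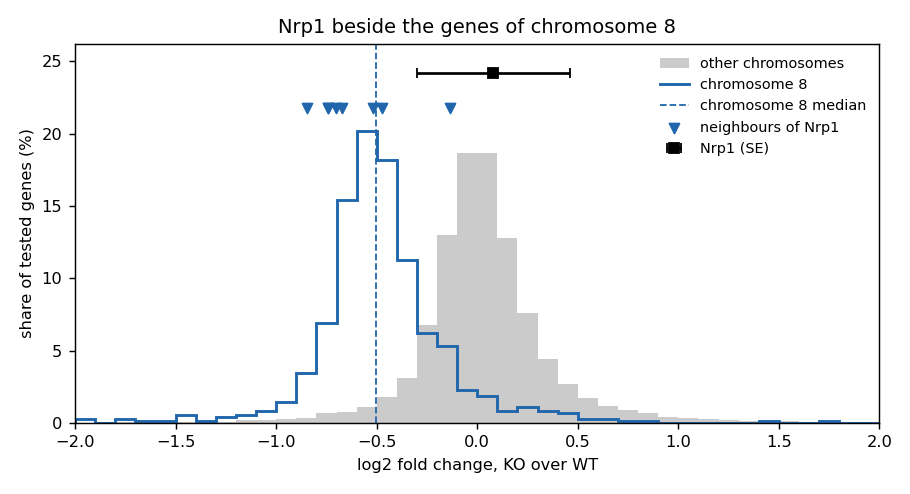
Distribution of log2 fold changes (knock-out over WT, x axis) of tested genes on chromosome 8 (blue line) and on other chromosomes (grey), as a percentage of the genes in each set. The dashed line is the chromosome 8 median at -0.51, triangles are the 8 tested neighbours of Nrp1, and the black square is Nrp1 at 0.08 with its SE. Values beyond the x axis are not shown.

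The A plexins, which form receptors with neuropilins, differed in level and in how they compared between genotypes. Plxna1 (Entrez gene 18844, chromosome 6, 89316313 to 89362613) had 1621 and 1458 counts in WT and 1900 and 1350 in the knock-out. This gave 107 ± 16.9 CPM for WT and 104 ± 23.5 CPM for the knock-out (SD, n = 2 each), and the knock-out libraries, at 121 and 87.8 CPM, lay outside both WT libraries on either side. The log2 fold change of -0.03 (SE 0.138) was therefore smaller than the spread between replicates. Plxna2 (Entrez gene 18845, chromosome 1, 194619791 to 194816869) had 75 and 82 counts in WT and 138 and 110 in the knock-out. Both knock-out libraries, at 8.80 and 7.16 CPM, lay above both WT libraries, at 5.51 and 5.35 CPM. Its log2 fold change was 0.56 (SE 0.173), and leaving out 1 library at a time moved it between 0.40 and 0.70. Plxna2 and Nrp2 lie on the same chromosome and had opposite directions.

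The B plexins, receptors of class 4 semaphorins, were nearly equal in both genotypes. Plxnb1 (Entrez gene 235611, chromosome 9, 109093849 to 109119915) had 529 and 577 counts in WT and 575 and 588 in the knock-out. At 38.3 ± 0.860 CPM (WT) and 37.5 ± 1.14 CPM (knock-out; SD, n = 2 each), it was the member with the smallest spread relative to its level in the knock-out, and its log2 fold change was -0.03 (SE 0.103). Plxnb2 (Entrez gene 140570, chromosome 15, 89155546 to 89182018) had 622 and 746 counts in WT and 770 and 610 in the knock-out. Its levels were 45.7 and 48.7 CPM in WT and 49.1 and 39.7 CPM in the knock-out, and the genotypes overlapped. The log2 fold change of Plxnb2 was -0.09 (SE 0.115).

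Among the genes next to these 4 plexins, at most 1 per plexin passed, a share near the 9.21% of all genes tested. For Plxna1, 1 of 10 tested neighbours fell, 4933427D06Rik (-1.72, SE 0.259, edgeR adjusted p = 7.12e-04). For Plxna2, 1 of 7 rose, G0s2, an inhibitor of lipolysis (1.78, SE 0.466, edgeR adjusted p = 0.0259). G0s2 had few counts, 3 and 8 in WT and 17 and 24 in the knock-out. The median log2 fold change of the neighbours was 0.24 for Plxna2, 0.06 for Plxna1, 0.04 for Plxnb1 and -0.02 for Plxnb2. For Plxnb2, 1 of 10 rose, the peptide hormone gene Adm2 (0.91, SE 0.230, edgeR adjusted p = 0.0210). Each of these genes was shifted in both knock-out libraries. For Plxnb1 the number was 0 of 10 in edgeR, with 0 at an unadjusted p-value under 0.05 and 0 at either limit with DESeq2. DESeq2 called 0 of the neighbours of Plxna2 and of Plxnb2.

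Levels were next compared between the genes per kb of gene length. In WT the order was Plxna1 (11.8 ± 1.87 CPM per kb), Nrp2 (6.65 ± 0.577), Plxnb2 (6.11 ± 0.273), Plxnb1 (3.99 ± 0.0896), Plxna2 (0.360 ± 0.00748) and Nrp1 (0.105 ± 0.0212; SD, n = 2 each). Neighbours in this order did not overlap between libraries, with the exception of Nrp2 and Plxnb2. In the knock-out Nrp2, at 2.93 ± 0.357 CPM per kb, moved from the second to the fourth place, below Plxnb2 (5.75 ± 0.860) and Plxnb1 (3.90 ± 0.119), while the order of the other genes was the same. No neighbours overlapped in the knock-out order.

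**Figure D3:**
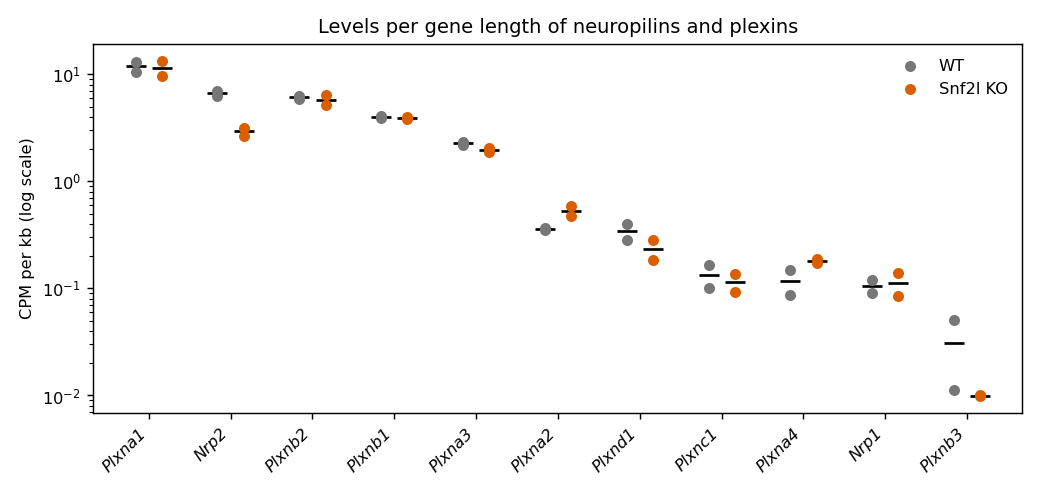
CPM per kb of gene length (log axis) of the 2 neuropilin and all 9 plexin genes of the table, ordered by the WT mean, with WT libraries in grey, Snf2l knock-out libraries in orange and genotype means as black bars. Plxna1 is the highest at 11.8 CPM per kb in WT, and the 2 neuropilins differ widely, with Nrp2 at 6.65 and Nrp1 at 0.105.

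Nrp2 was by far the more abundant neuropilin in both genotypes. Per kb it stood at 78.3 and 52.0 times the level of Nrp1 in WT, and at 37.6 and 19.2 times in the knock-out. Nrp1, the denominator, had between 12 and 21 counts over the 4 libraries. Both neuropilins summed to 6.75 ± 0.556 CPM per kb in WT and to 3.04 ± 0.318 in the knock-out (SD, n = 2 each). The summed level of all 9 plexins was 25.2 ± 1.78 CPM per kb in WT and 24.2 ± 3.47 in the knock-out, which overlapped. Consequently, Nrp2 stood at 0.267 and 0.261 times the plexin sum in WT and at 0.119 and 0.123 times in the knock-out. This ratio was more even within a genotype than the level of Nrp2 itself.

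Part of the spread within genotypes followed gene length. Among the 2261 tested genes of at least 7720 bp, the length of the shortest member, replicate 1 was above replicate 2 by a median of 0.13 (log2) in WT and of 0.17 in the knock-out, against -0.0064 and 0.0031 over all genes. For Plxna1 these differences were 0.32 and 0.46, for Nrp2 they were 0.18 and 0.25, and for Plxna2 they were 0.04 and 0.28. Not all members followed the pattern. Nrp1 had the opposite sign (-0.28 and -0.49), and Plxnb1 (0.05 and -0.06) and Plxnb2 (-0.09 and 0.30) differed in sign between the genotypes. The values of Nrp1 rest on 12 to 21 counts per library and are shrunk by the 0.5 CPM added before taking log2. Between genotypes, the median log2 fold change of the long genes was -0.05. The part of this pattern in the values of single members was not tested.

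The remaining plexins were tested as genes outside the choice. The 5 genes Plxna3, Plxna4, Plxnb3, Plxnc1 and Plxnd1 code for further semaphorin receptors, of which 4 passed the filter on low counts. None of the 4 passed an adjusted p-value of 0.05 in edgeR, with 0 at an unadjusted p-value under 0.05 and 0 at either limit with DESeq2. Plxna3, at 2.28 CPM per kb in WT, was the most abundant, with 252 and 266 counts in WT and 253 and 229 in the knock-out (log2 fold change -0.21, SE 0.126). Plxna4, Plxnc1 and Plxnd1 had 45 counts or fewer in every library, and their log2 fold changes of 0.64 (SE 0.302), -0.20 (SE 0.389) and -0.56 (SE 0.298) had wide errors. Plxnb3 had at most 5 counts in any library and was not tested.

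For the ligands of these receptors, the class 3 semaphorins were examined first, as they are the secreted ligands that bind neuropilins. Of 7 genes, 4 were tested and none passed an adjusted p-value of 0.05 in edgeR, while 1 had an unadjusted p-value under 0.05 and DESeq2 gave 0 at either limit. Sema3e, which can bind plexin D1 without a neuropilin, was the most abundant, with 327 and 362 counts in WT and 496 and 386 in the knock-out. It held 66.1% and 61.0% of the class 3 level per kb in the WT libraries and 74.9% and 65.1% in the knock-out libraries. Between genotypes it differed by 0.25 on the log2 scale (SE 0.126), which did not pass (edgeR adjusted p = 0.261). Sema3a, Sema3d and Sema3g had at most 12 counts in any library.

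Of 13 membrane-bound semaphorins, 12 were tested, of which 1 rose, 1 fell and 10 did not pass. Sema4c rose from 56 and 78 counts in WT to 126 and 108 in the knock-out (log2 fold change 0.70, SE 0.180, edgeR adjusted p = 0.0227), and both knock-out libraries were higher. Sema4a, which has been described in immune cells, fell from 203 and 233 counts to 174 and 136 (log2 fold change -0.59, SE 0.146, edgeR adjusted p = 0.0181), and both knock-out libraries were lower. Neither call was firm, as DESeq2 gave adjusted p-values of 0.145 for Sema4c and 0.0729 for Sema4a. The call of Sema4c was also lost without WT replicate 1 (edgeR adjusted p = 0.178) and that of Sema4a without knock-out replicate 2 (edgeR adjusted p = 0.0933). The most abundant membrane semaphorin was Sema4b, at 11.6 CPM per kb in WT, with a log2 fold change of 0.11 (SE 0.0926).

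Among the lists of pathway genes, that of the VEGF family had the highest share of genes that passed. This list, like all lists here, was chosen with earlier results of these data known, so its share and p-values are given as a description. VEGF receptors are tyrosine kinases to which neuropilins act as co-receptors. Of 8 genes, all were tested, 3 rose and none fell, while 553 of all 13840 genes tested rose and 9.21% passed in either direction. The median log2 fold change of the list was 0.21, whereas that of all genes tested was 0.0002. Vegfa, the main ligand of the family, had 361 and 424 counts in WT and 741 and 670 in the knock-out. It rose from 27.1 ± 0.809 to 45.4 ± 2.57 CPM (SD, n = 2 each; log2 fold change 0.74, SE 0.106, edgeR adjusted p = 4.92e-04).

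The VEGF receptor gene Kdr had 17 counts in each WT library and 63 and 43 counts in the knock-out. It rose from 1.18 ± 0.0988 to 3.41 ± 0.861 CPM (SD, n = 2 each; log2 fold change 1.53, SE 0.291, edgeR adjusted p = 3.43e-03). Flt1, a second receptor of Vegfa, had 11 and 19 counts in WT and 51 and 42 in the knock-out (log2 fold change 1.52, SE 0.299, edgeR adjusted p = 4.22e-03). All 3 genes were higher in both knock-out libraries, and their calls held under the 13 alternatives tried. Flt4, the receptor of Vegfc, had 44 and 61 counts in WT and 75 and 50 in the knock-out and overlapped between genotypes. Vegfb, the most abundant gene of the list at 10.9 CPM per kb in WT, did not pass at 0.28 on the log2 scale (SE 0.134, edgeR adjusted p = 0.246).

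With Nrp2 lower and Kdr and Flt1 higher, the ratio between the co-receptor and the receptors differed between genotypes. Per kb, Nrp2 was 11.7 and 8.74 times the sum of Flt1, Kdr and Flt4 in the WT libraries and 2.44 and 2.84 times in the knock-out libraries. The genotypes did not overlap in this ratio, which contains the value used for the choice and was not tested.

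**Figure D4:**
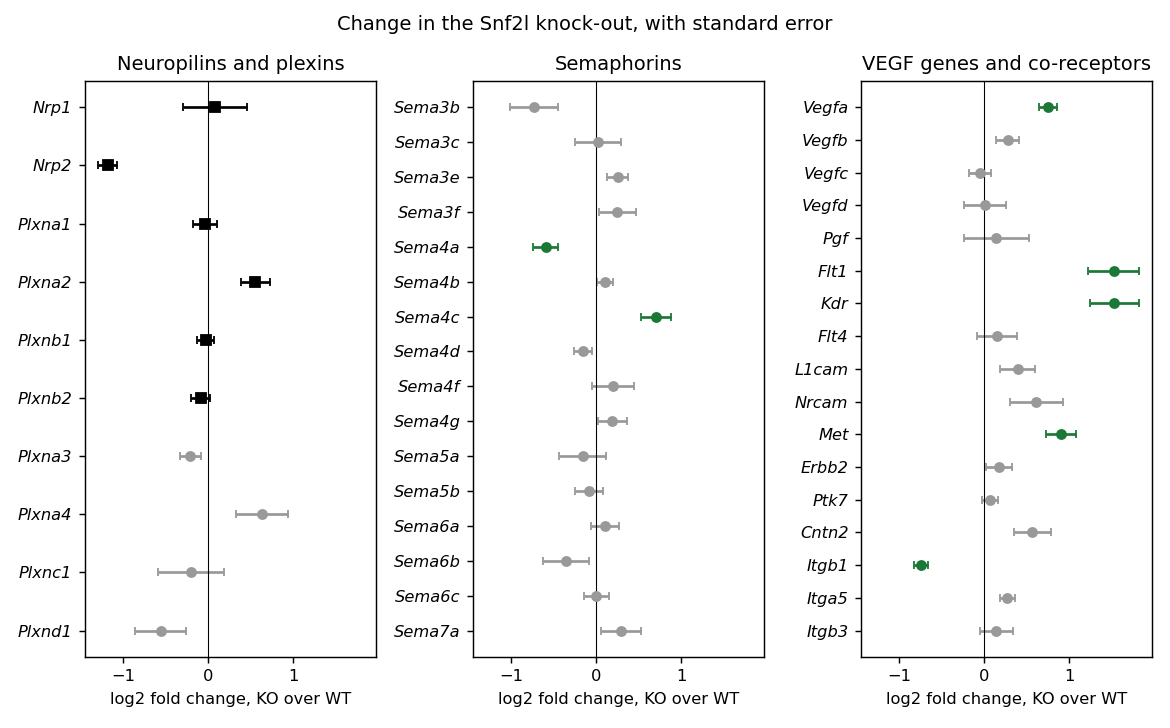
Log2 fold changes (knock-out over WT, x axis) with SE of the tested genes among neuropilins and plexins, semaphorins, and VEGF genes with co-receptors. Black squares are the 6 chosen genes, green circles are other genes with an adjusted p-value under 0.05 and grey circles are those that did not pass. Nrp2 (-1.18) is the lowest value, Kdr (1.53) and Flt1 (1.52) are the highest.

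Co-receptors of semaphorin receptors were examined with 12 genes, of which 9 were tested, 1 rose and 1 fell. Met, the receptor of hepatocyte growth factor and a partner of B plexins, rose from 67 and 63 to 141 and 120 counts (log2 fold change 0.90, SE 0.177, edgeR adjusted p = 4.33e-03), higher in both knock-out libraries. The gene that fell is Itgb1, a neighbour of Nrp1 on chromosome 8, described above. With the chromosome 8 median removed, Itgb1 stood at -0.24 on the log2 scale and did not pass (edgeR adjusted p = 0.143). Itgb1 was also the most abundant gene of the list, at 77.7 CPM per kb in WT.

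The intracellular effectors of plexins comprised 32 genes, all of which were tested. Of these, 1 rose, none fell and 31 did not pass, with a median log2 fold change of 0.04. Rras, a Ras-family GTPase on which plexins act, rose from 108 and 135 counts to 188 and 201 (log2 fold change 0.58, SE 0.146, edgeR adjusted p = 0.0208), higher in both knock-out libraries. Its adjusted p-value was 0.114 with DESeq2, and 0.142 in edgeR without WT replicate 1. Cfl1, which codes for the actin-severing protein cofilin, was the most abundant gene at 294 CPM per kb in WT, and did not pass at 0.17 on the log2 scale (SE 0.0853, edgeR adjusted p = 0.260).

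Other receptors of axon guidance served as a comparison. Of 24 genes of the DCC, UNC5, ROBO and Eph families, 17 were tested, 1 rose and 1 fell. Epha1, an ephrin receptor, rose from 126 and 150 to 269 and 244 counts (log2 fold change 0.79, SE 0.136, edgeR adjusted p = 1.75e-03), higher in both knock-out libraries. Robo4, a receptor known from endothelium, fell from 160 and 195 to 113 and 131 counts (log2 fold change -0.64, SE 0.151, edgeR adjusted p = 0.0140), lower in both knock-out libraries. The call of Robo4 was lost with DESeq2 (adjusted p = 0.0743) and without WT replicate 2 (edgeR adjusted p = 0.0676). Epha2 was the most abundant, at 34.9 CPM per kb in WT, with a log2 fold change of 0.13 (SE 0.0868).

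Over all pathway genes outside the 6 members, 10 of 86 tested passed an adjusted p-value of 0.05 in edgeR (11.6%), 7 higher and 3 lower. This is near the 9.21% of all genes tested. As the lists were chosen with earlier results of these data known, the share is a description. The number was 6 with DESeq2 and 16 without knock-out replicate 1.

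Genes with a profile like that of Nrp2 were identified by the distance between log2 CPM values, centred on the mean of each gene, over the 4 libraries. The comparison covered 12609 tested genes with a mean of at least 20 counts. The closest gene was Ccnd2, which codes for cyclin D2, at a distance of 0.0304, with 1176 and 1173 counts in WT and 628 and 507 in the knock-out. It was followed by Gm5662 (0.106), the phospholipase gene Pld1 (0.126), the neural transcription factor gene Pax6 (0.168) and the G-protein gene Gna14 (0.178). As few libraries define the profile, likeness amounts to a similar ratio between genotypes after 0.5 CPM was added, which shrinks the ratio of genes at low levels. Without this addition, Ccnd2 was at 44.8% of WT and Nrp2 at 44.1%. Gm5662, at 2.91 CPM in WT, was at 35.4%, and Gna14, at 8.79 CPM in WT, at 38.8%.

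Markers of other cell types were set beside these results, since neuropilins and VEGF receptors are also expressed in neural, vascular and mesenchymal cells. Of 10 neural markers, 5 were tested, 4 fell and none rose, and their summed level was between 219 and 240 CPM in WT and between 140 and 144 CPM in the knock-out. The 4 genes are Pax6, Nes, Sox1 and Tubb3, the last 2 of which lie on chromosome 8, and Dcx had 0 counts in all libraries. Most of the sum was Tubb3, at 147 CPM in WT and 96.2 CPM in the knock-out on average. The log2 fold changes of Tubb3 (-0.61) and Sox1 (-0.59) were near the chromosome 8 median of -0.51. Pax6 (-1.18) and Nes (-1.06) lie on other chromosomes. Of 10 endothelial markers, 7 were tested and 2 rose, which are Kdr and Flt1 themselves. Their summed level was between 24.3 and 25.7 CPM in WT and between 28.9 and 29.6 CPM in the knock-out, with Cdh5 at 13 counts or fewer and Emcn at 0 in all libraries.

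Of 10 fibroblast markers, 7 were tested and 2 rose, Col1a1 and Col3a1, with a summed level between 14.3 and 16.5 CPM in WT and between 29.9 and 30.5 CPM in the knock-out, and Lum was at 0 in all libraries. Of 10 primitive endoderm markers, 9 were tested and 5 rose (Gata4, Gata6, Pdgfra, Dab2 and Col4a1). The list summed to between 406 and 411 CPM in WT and between 463 and 514 CPM in the knock-out. Col4a1, at a log2 fold change of 0.50, lies on chromosome 8, where the median was -0.51. Of 10 mesoderm markers, 4 were tested and 2 rose, Hand1 and Kdr. The mesoderm list summed to between 6.92 and 7.42 CPM in WT and between 9.83 and 11.4 CPM in the knock-out. Within this sum, Hand1 rose from 1.18 to 2.77 CPM and Kdr from 1.18 to 3.41 CPM on average. Kdr is thus counted in both the endothelial and the mesoderm list. DESeq2 called fewer markers than edgeR in several lists, with 2 of 9 in primitive endoderm, 3 of 5 in the neural list and 1 of 4 in mesoderm, and the same number, 2 of 7 each, in the endothelial and fibroblast lists. Over all genes tested, 9.21% passed in edgeR. The part of these cell types in the values of Nrp2, Plxna2 and the VEGF genes was not tested.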

How the data were processed

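Per the methods, the authors aligned reads of 4 poly(A) libraries to mm10 with QuasR and HISAT2 and counted reads per gene of UCSC Known Genes. The deposited values are raw read counts, with 1 row per Entrez gene, and the table also gives gene lengths. Use of strand in counting is not given in the sources used here. The labels name a stranded kit and the methods an unstranded one. Symbols and positions were matched by Entrez identifier to RefSeq of GRCm38.p6, the assembly of mm10 (24570 of 24594 rows).

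Counts were analysed with edgeR 4.0.16 in R 4.3.3 (filterByExpr with a minimum count of 10, TMM scaling, glmQLFit and glmQLFTest in legacy form, genotype as the only term), with Benjamini-Hochberg adjustment over 13840 tested genes. All tests were two-sided. The SE was derived from the fold change and the F statistic. Levels are CPM on TMM-scaled library sizes, divided by gene length in kb where genes are compared, and a pseudocount of 0.5 CPM was added before taking log2 of single libraries. The procedure was tested on simulated data, in which the planted changes were larger than those called among the pathway genes. Recovery of changes as small as the latter was not simulated. The smallest library held 13771642 counts, so that genes near 10 counts are known with low precision.

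P-values set the difference between genotypes against the spread between the 2 libraries of each genotype, estimated with information shared across the tested genes. The labels number these libraries as replicates, and the methods call them independent. Chi-square per degree of freedom was 5.17 between WT libraries and 7.35 between knock-out libraries, above the value of sampling noise alone. Alternatives were other scalings, filters and fits, DESeq2 1.42.0, the replicate number as a block, removal of the chromosome 8 median and leaving out each library.

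The 6 genes and all lists were chosen with earlier results of these data known. Named are the members, the other plexins, listed genes with an adjusted p-value under 0.05 (at most 8 per list), the most abundant gene of each list, Vegfa, Kdr and Flt1, neighbours of members with an adjusted p-value under 0.05, and the 5 genes most like Nrp2. Pard3b, Ino80d, Flt4, Vegfc, Sema3a, Sema3d, Sema3g and single cell type markers were named in addition, after their values were seen.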

Additional observations from a re-analysis of the deposited data

How the results depend on the processing

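Nrp2 stayed between -1.31 and -1.06 on the log2 scale in all 13 alternatives, and of 78 alternative values of the 6 members 77 moved by less than the spread between replicates. The exception is Nrp1, at 0.58 with the chromosome 8 median removed, by construction of that alternative. For fits with 1 library left out, staying within the spread is nearly fixed in advance, as the spread comes from the same libraries. In those fits Nrp1 lay between -0.32 and 0.40 and still counted as within it. For the 10 of 86 tested pathway genes that passed in edgeR, 0 of 130 alternative values changed direction and 9 lost the call, whereas the other tested pathway genes were followed only as a count. The distance of Nrp1 from the chromosome 8 median lay between 0.19 and 0.89 with 1 library left out. Among the members, Nrp1 had the fewest counts, at most 21 in a library, and the SE of its fold change was 0.379.

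With DESeq2, 88 genes passed the threshold of the study (137 in edgeR), 799 had an adjusted p-value under 0.05 (1274 in edgeR) and 6 pathway genes passed (10 in edgeR), while 1074 genes had no adjusted p-value from DESeq2. With the chromosome 8 median removed, 662 genes and 4 neighbours of members (10 before) had an adjusted p-value under 0.05, and 67.2% of the 662 were higher against 43.4% before. With 1 library left out, between 139 and 187 genes passed the threshold of the study, between 829 and 1932 had an adjusted p-value under 0.05, and the count of pathway genes lay between 9 and 16 and of neighbours of Nrp2 between 0 and 2, where the lone library of a genotype is assumed to vary like the others.

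With the replicate number as a block, 223 genes passed the threshold of the study, 3471 had an adjusted p-value under 0.05, 26 pathway genes passed and 1 neighbour of Nrp2 passed. Differences between replicates 1 and 2 correlated at 0.246 between the genotypes across genes, but 2 pairs do not show that the numbers pair the samples.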
